A study of Mus musculus with 14 samples.

Results

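Lhcgr, Prlr, Ptgfr, Akr1c18 and Nr5a2 are 5 genes through which the corpus luteum is maintained and dismantled, and they were taken by symbol from the 21853 genes of the deposited table. Expression was measured by RNA-seq in the ovary and uterus of 7 female C57BL/6J mice aged 28 weeks. The OC group (3 mice) received saline through the tail vein, and the OT group (4 mice) received conditioned medium of human amniotic membrane-derived mesenchymal stem cells (AMSC-CM) at 1 µL per g of body weight, in each case 6 injections at intervals of 4 days. Before these injections every mouse, OC and OT alike, was given PMSG at 10 IU and, after 48 h, hCG at 10 IU, gonadotropins that induce follicle growth, ovulation and new corpora lutea. The medium came from cells of human donors, and each library is labelled as ovary or uterus tissue. Ovary and uterus libraries of the same number were taken as 1 mouse, which the labels do not state. The stage of the estrous cycle at collection is not given in the labels.

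The corpus luteum forms from the ovulated follicle and secretes progesterone. In rodents prolactin, through its receptor Prlr, and luteinizing hormone (LH), through its receptor Lhcgr, keep the gland active, and the nuclear receptor Nr5a2 (LRH-1) drives its steroidogenic genes. Regression begins when prostaglandin F2α (PGF2α) acts on its receptor Ptgfr, and in the mouse the enzyme 20α-hydroxysteroid dehydrogenase, encoded by Akr1c18 and repressed by prolactin, then converts progesterone to a form with little progestational activity.

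All values are FPKM (fragments per kb of transcript scaled by the number of mapped fragments), a level scaled by transcript length, so that levels of different genes can be set side by side. The read depth behind each library is unknown. Summed FPKM ran from 374816 to 397644 in the ovary and from 425875 to 577494 in the uterus, with the highest sum in the OT1 uterus. The 7 luteal cell markers (Star, Cyp11a1, Hsd3b1, Scarb1, Sfrp4, Parm1 and Hsd17b7) summed to 6861 to 8077 FPKM in OC ovaries and 6503 to 8171 FPKM in OT ovaries, against 64.5 to 107 FPKM in the uterus, so the ovary libraries held abundant luteal RNA. They also held RNA of marker genes of neighbouring organs. Of the position genes of the uterus, Hoxa10 ranged from 0.572 to 53.4 FPKM over the ovaries and Hoxd10 from 8.985 to 17.5 FPKM. The 3 oviduct markers summed to 451 to 971 FPKM, most of it Ovgp1 (424 to 942 FPKM). Whether this RNA came from neighbouring organs, and its part in the results, was not tested. In tissue of mixed cells, fewer luteal cells and less RNA per luteal cell cannot be told apart.

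The genes lie on 5 chromosomes (GRCm38, mm10). Lhcgr (ENSMUSG00000024107.7) is at chr17:88716481-88791990, minus strand; Prlr (ENSMUSG00000005268.20) at chr15:10177238-10349180, plus strand; Ptgfr (ENSMUSG00000028036.6) at chr3:151796502-151837630, minus strand. Akr1c18 (ENSMUSG00000021214.14) is at chr13:4132615-4150654, minus strand, and Nr5a2 (ENSMUSG00000026398.14) at chr1:136842571-136960448, minus strand. RefSeq (GRCm38.p6) gave 8 promoter windows for them, 3 for Prlr, 2 for Nr5a2 and 1 for each of the others, each from 250 bases before to 50 after a transcription start. The 250 bases upstream of a start are shown for 4 windows, those of Lhcgr and Prlr because their levels moved together over the ovaries, that of Akr1c18 because its level varied most, and that of Nr5a2 because it is the transcription factor of the set. Capitals mark matches to the motifs named in the next paragraph, and each sequence reads 5′ to 3′ on the strand of the gene.
Lhcgr, chr17:88792015-88792264, minus strand: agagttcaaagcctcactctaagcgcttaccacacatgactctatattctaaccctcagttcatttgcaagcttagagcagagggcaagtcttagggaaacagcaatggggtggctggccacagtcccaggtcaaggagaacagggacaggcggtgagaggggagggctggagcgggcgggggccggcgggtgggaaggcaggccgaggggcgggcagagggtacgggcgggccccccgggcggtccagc
Prlr, second start, chr15:10223656-10223905, plus strand: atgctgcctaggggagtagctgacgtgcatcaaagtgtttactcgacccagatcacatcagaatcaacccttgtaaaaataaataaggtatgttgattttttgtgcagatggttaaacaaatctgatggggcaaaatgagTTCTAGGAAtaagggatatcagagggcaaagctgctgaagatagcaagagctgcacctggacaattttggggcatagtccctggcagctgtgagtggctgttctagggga
Akr1c18, chr13:4150647-4150896, minus strand: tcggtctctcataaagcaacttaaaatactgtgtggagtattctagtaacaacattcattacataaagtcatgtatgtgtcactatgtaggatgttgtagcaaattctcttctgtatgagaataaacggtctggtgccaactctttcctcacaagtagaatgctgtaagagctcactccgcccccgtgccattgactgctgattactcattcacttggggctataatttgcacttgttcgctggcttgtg
Nr5a2, first start, chr1:136960449-136960698, minus strand: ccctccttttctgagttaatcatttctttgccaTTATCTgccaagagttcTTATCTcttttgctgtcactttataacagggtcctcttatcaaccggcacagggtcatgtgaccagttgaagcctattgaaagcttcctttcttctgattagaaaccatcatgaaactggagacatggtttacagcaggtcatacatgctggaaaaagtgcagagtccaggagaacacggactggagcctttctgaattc

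Of 5 motifs searched on both strands of the whole windows, 3 matched none of the 8. These were the NR5A site (CAAGGTCA or CAAGGCCA), present in 3.92% of 32851 RefSeq mouse promoters, the NR4A site (AAAGGTCA, 1.51%) and the cAMP response element (TGACGTCA, 1.79%). The STAT site (TTCNNNGAA, 8.3% of promoters) had 1 match, TTCTAGGAA, 110 bases before the second start of Prlr. The GATA site (AGATAA, 11.2% of promoters) had 2 matches, 217 and 200 bases before the first start of Nr5a2. No 2 of the motifs overlapped in these windows. The Lhcgr window was rich in G and C (64.0%) and that of Akr1c18 was poor in them (42.3%), against a median of 52.7% over all promoters. These matches are a description of letters in the windows only.

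In the ovary Prlr and Ptgfr were the most abundant of the 5 genes and Akr1c18 the least, and in the uterus all 5 were at 14.4% or less of the ovarian level of the same mouse. The median ovarian level over 7 mice was 146 FPKM for Prlr, 145 for Ptgfr, 84.0 for Nr5a2, 78.1 for Lhcgr and 34.9 for Akr1c18. Neighbours in this order were compared within mice by an exact two-sided sign-flip permutation test on log2 levels, adjusted over 8 such comparisons. Prlr and Ptgfr did not differ beyond their spread (adjusted exact p = 0.268; Prlr was higher in 3 of 7 mice), nor did Nr5a2 and Lhcgr (adjusted exact p = 0.268; 6 of 7 mice). Ptgfr was above Nr5a2 in 7 of 7 mice (adjusted exact p = 0.0625) and Lhcgr above Akr1c18 in 6 of 7 (adjusted exact p = 0.075), and neither passed 0.05 after adjustment. The unadjusted exact p for Ptgfr and Nr5a2 was 0.0156, the smallest that 7 mice allow, so a pair in order in every mouse could still fail. The order itself was taken from the medians of the same values. In the uterus the median levels were 11.0 FPKM for Prlr, 4.30 for Ptgfr, 1.65 for Akr1c18, 1.57 for Nr5a2 and 0.0701 for Lhcgr. Of these neighbours Akr1c18 and Nr5a2 had an adjusted exact p of 0.406, and the other 3 pairs had adjusted exact p from 0.0625 to 0.075.

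**Figure D1:**
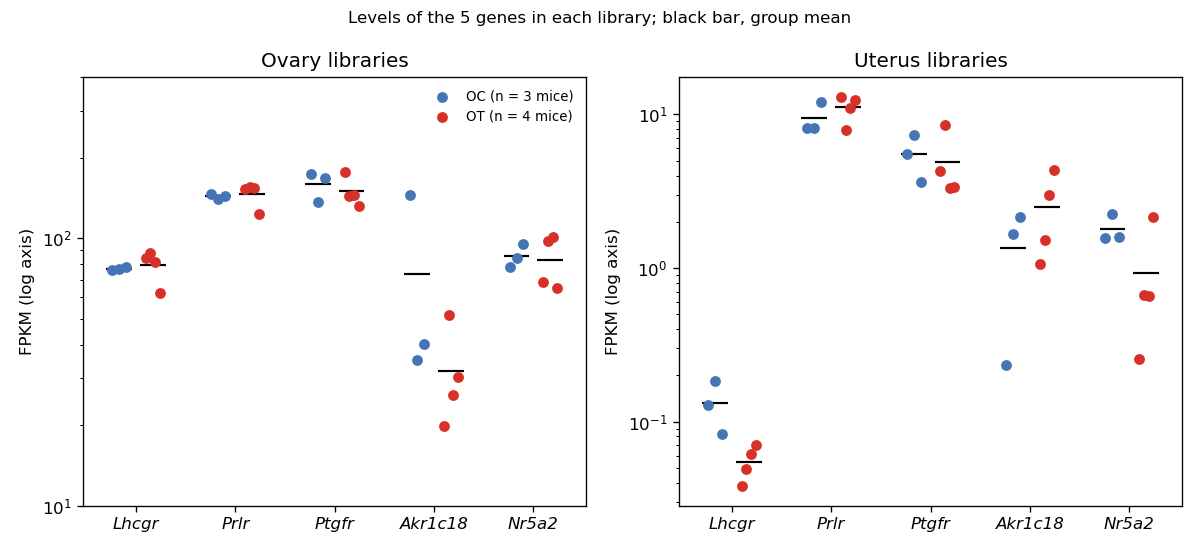
FPKM on a log axis for each gene in the 7 ovary libraries (left) and the 7 uterus libraries (right), with OC mice in blue, OT mice in red and the group mean as a black bar. The OC and OT points overlap for every gene in the ovary, and in the uterus they separate for Lhcgr, at levels of 0.184 FPKM and below.

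Lhcgr, the receptor for LH and for the hCG these mice received, was the most tightly held of the 5 genes in OC ovaries. Its level was 76.0, 76.7 and 78.1 FPKM in the OC1, OC2 and OC3 ovaries. In the OT1 to OT4 ovaries it was 84.6, 87.9, 81.6 and 62.2 FPKM. The first 3 OT ovaries lay above every OC ovary and OT4 lay below, so the groups overlapped. The group means were 77.0 ± 1.08 FPKM (SD, n = 3) and 79.1 ± 11.5 FPKM (SD, n = 4). With both groups taken in, Prlr was the tighter gene, with a within-group SD of 0.128 log2 units against 0.175 for Lhcgr. Of the tested ovarian genes 47.6% had a larger within-group SD than Lhcgr. The log2 fold change of OT over OC was 0.03 (SE 0.11, limma with Benjamini-Hochberg adjusted p = 0.998), a ratio of 1.02 with a 95% interval from 0.851 to 1.22.

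Prlr, the prolactin receptor, was at a higher level than Lhcgr in every ovary. It stood at 146, 140.4 and 143.5 FPKM in the OC ovaries. In the OT1 to OT4 ovaries it stood at 153, 156, 153 and 123 FPKM. As with Lhcgr, OT1, OT2 and OT3 were above every OC ovary and OT4 was below, and OT4 was far from the other OT ovaries for its group's spread. The means were 143 ± 2.71 FPKM (SD, n = 3) in OC and 146 ± 15.6 FPKM (SD, n = 4) in OT. OT over OC was 0.02 on the log2 scale (SE 0.09, limma adjusted p = 0.998), a ratio of 1.02 with a 95% interval from 0.881 to 1.17.

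Ptgfr, the receptor through which PGF2α starts luteal regression, was at 173, 136 and 168 FPKM in the OC ovaries. In the OT ovaries it was at 177, 144, 145 and 132 FPKM. The highest and the lowest ovary of all were both OT, and the OC range lay inside the OT range. On the log2 scale the fold change was -0.09 (SE 0.12, limma adjusted p = 0.997), a ratio of 0.939 with a 95% interval from 0.779 to 1.13.

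Akr1c18, the progesterone-inactivating enzyme, was the most variable of the 5. It was at 144, 34.9 and 40.03 FPKM in the OC1, OC2 and OC3 ovaries. In the OT1 to OT4 ovaries it was at 19.8, 51.8, 25.9 and 30.2 FPKM. OC1 stood apart from the other 6 ovaries, 3 OT ovaries were below every OC ovary, and OT2 lay above OC2 and OC3, so the groups overlapped. The highest ovary was 7.29-fold above the lowest, and 2.86% of the tested ovarian genes had a larger within-group SD than the 0.84 log2 units of Akr1c18. Its log2 fold change was -0.97 (SE 0.50, limma adjusted p = 0.997), a ratio of 0.511 with a 95% interval from 0.233 to 1.12. Without OC1 the log2 fold change was -0.32. Without OC2 it was -1.34 and without OT2 it was -1.23, and in both of these it passed the cutoffs of a call given below, so the call depended on which mouse was left out.

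Nr5a2, the nuclear receptor of luteal and granulosa cells, was at 77.8, 84.0 and 95.0 FPKM in the OC ovaries. In the OT ovaries it was at 68.5, 97.7, 101 and 65.2 FPKM. The OT ovaries fell on both sides of the OC range, with OT2 and OT3 above it and OT1 and OT4 below it. OT differed from OC by a log2 fold change of -0.07 (SE 0.17, limma adjusted p = 0.998), a ratio of 0.955 with a 95% interval from 0.733 to 1.25.

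None of the 5 genes was called in the ovary, where a call was at least a 2-fold change at an unadjusted limma p of at most 0.05, the cutoffs of the study. In the same limma fit 0.451% of 14415 tested genes were called, 53 higher and 12 lower in OT, none of the 14415 had a Benjamini-Hochberg adjusted p under 0.05, and 650 had an unadjusted p under 0.05. The groups overlapped for 5 of 5 genes, against 5.91% of tested genes whose groups did not overlap. An exact two-sided permutation test of each gene, which cannot go below 0.0571 for 3 against 4 mice, gave p from 0.229 for Akr1c18 to 0.857. For Lhcgr, Prlr, Ptgfr and Nr5a2 the 95% intervals of the OT to OC ratio lay between 0.733 and 1.25, so changes of 2-fold were outside them. The interval for Akr1c18 included a 2-fold decrease. OT4 was the lowest ovary for Lhcgr, Prlr, Ptgfr and Nr5a2 (62.2, 123, 132 and 65.2 FPKM). The 7 luteal cell markers also summed lowest in OT4, at 6503 FPKM, but not each of them was lowest there. Star (399 FPKM) and Parm1 (10.7 FPKM) were lowest in OT1, and Cyp11a1 (2456 FPKM) and Hsd3b1 (2032 FPKM) in OC2. The part of luteal RNA content in the 4 values was not tested.

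**Figure D2:**
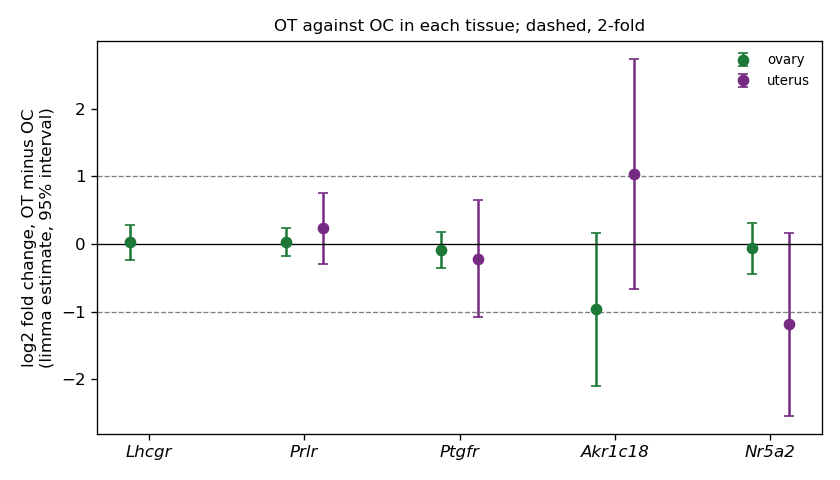
Log2 fold change of OT over OC for each gene, estimated with limma on log2(FPKM + 0.1), in the ovary (green) and uterus (purple), with bars for the 95% interval, a solid line at no change and dashed lines at 2-fold. Each interval includes 0, those of Lhcgr, Prlr, Ptgfr and Nr5a2 in the ovary are narrow, and Lhcgr was below the level tested in the uterus.

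Lhcgr and Prlr varied together from ovary to ovary, with both values of an ovary taken from 1 library. Over 7 ovaries Pearson's r of their log2 levels was 0.975 (exact permutation p = 0.00179, adjusted p = 0.0179 over 10 pairs of the 5 genes). Spearman's rho was 0.857 (exact permutation p = 0.0238, adjusted p = 0.238), so the rank correlation did not pass after adjustment. Each ovary held 1.77 to 1.98 FPKM of Prlr for each FPKM of Lhcgr. Without OT2 and OT4, the ovaries farthest from the median of Lhcgr, r was 0.854 over the other 5, and without OT4 alone it was 0.891 with an adjusted exact permutation p of 0.347. With group means removed, and permuted within groups, r was 0.975 and the adjusted exact permutation p was 0.625. The adjusted p was also above 0.05 without OC2 or OC3 or OT3 (0.0556 each) and without OT2 (0.111), while r stayed between 0.974 and 0.983 in these. The other 9 pairs had adjusted exact permutation p of 0.521 or more, with r from -0.07 for Ptgfr and Nr5a2 to 0.59 for Lhcgr and Nr5a2. Without OT1 the pair Lhcgr and Nr5a2 had r = 0.912 (adjusted exact permutation p = 0.0417).

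**Figure D3:**
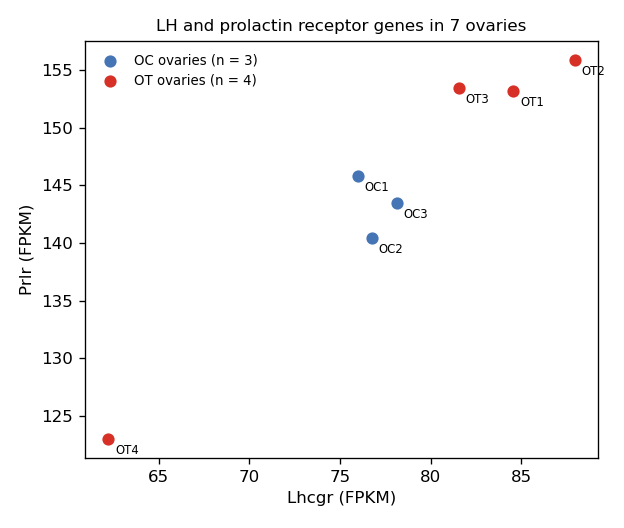
Prlr against Lhcgr, both in FPKM, with 1 point for each of the 7 ovaries (OC blue, OT red). OT4 lies at the lower left at 62.2 and 123 FPKM, the OC ovaries in the middle, and OT1, OT2 and OT3 at the upper right.

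The genes whose ovarian pattern was most like that of each member were sought among 1517 or 1518 genes that averaged 5 FPKM or more and had an SD of at least 0.25 log2 units. Lhcgr, Prlr and Ptgfr had smaller SDs (0.161, 0.117 and 0.173 log2 units), so they were not among the genes searched. Lhcgr and Prlr were more alike each other (r = 0.975) than any gene named below for either. Nr5a2 was most alike Slc37a4, the glucose-6-phosphate transporter of the endoplasmic reticulum (r = 0.974), Dhcr7, the last enzyme of cholesterol synthesis (r = 0.954), and Cbarp (r = 0.939). Dhcr7 ranged from 45.9 to 82.4 FPKM over the ovaries. Ptgfr was most alike Lrp8, a lipoprotein receptor (r = 0.946), Hist2h3b (r = 0.931) and a gene named Fam220a (r = 0.928). For Lhcgr these included Adra1d (r = 0.915, Spearman's rho 0.464) and Gimap9 (r = 0.888, rho 0.929). For Prlr they were Gimap9 (r = 0.924), 2310009B15Rik (r = 0.924) and Hist1h2ak (r = 0.895). Gimap9 therefore stood on the lists of both receptors. Akr1c18 was most alike Sgsm3 (r = 0.910), Trim7 (r = 0.853) and Cep44 (r = 0.837), with Spearman's rho of 0.786, 0.714 and 0.464. All of these are the highest of many correlations over the same 7 libraries and are given as a description.

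Each gene was higher in the ovary than in the uterus in 7 of 7 mice, and 5 of 5 were called higher there (at least 2-fold, limma adjusted p under 0.05), against 9.59% of 14557 tested genes. The ovarian level of Lhcgr was 8.70 log2 units above the uterine level (SE 0.12, limma adjusted p = 3.19e-14). Nr5a2 was 6.07 log2 units higher (SE 0.31, limma adjusted p = 3.81e-09), Ptgfr 4.95 (SE 0.21, adjusted p = 5.74e-10), Akr1c18 4.74 (SE 0.48, adjusted p = 2.81e-06) and Prlr 3.83 (SE 0.12, adjusted p = 5.45e-11). The smallest of the 5 differences was that of Prlr. This fit had no term for the mouse, although both organs were taken as those of 1 mouse. With the mouse as a block the limma adjusted p ran from 6.35e-09 for Lhcgr to 1.14e-04 for Akr1c18. For Lhcgr the log2(FPKM + 0.1) scale understates the difference and its spread, because its uterine levels were between 0.038 and 0.184 FPKM, and it passed the filter through its ovarian level. With a pseudocount of 0.01 the difference was 9.71 log2 units (SE 0.18).

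Set against the ovary of the same mouse, the uterine level of Lhcgr was 0.0446% to 0.240% (median 0.106%). The same share was 0.0260% to 0.135% (median 0.0803%) for Cyp11a1, the side-chain cleavage enzyme, and had a median of 0.0446% for Hsd3b1, which makes progesterone. The uterine share of Prlr was 5.04% to 10.1% (median 7.20%), that of Ptgfr 2.15% to 5.92% (median 2.55%) and that of Nr5a2 0.371% to 3.27% (median 1.67%). The lowest shares of these 3 genes were above the highest share of Cyp11a1, but other ovarian genes overlapped them. Star, the cholesterol transporter of steroidogenesis, had a share of 0.599% to 1.00% (median 0.758%), which overlapped that of Nr5a2. So did Inha, an inhibin subunit (0.256% to 1.52%). The share of Amh, a granulosa cell marker, was 0% to 5.88% (median 1.13%) and overlapped those of all 3. The luteal cell marker Scarb1 was at 366 to 530 FPKM in ovaries and 18.5 to 35.8 FPKM in uteruses. Sfrp4 was at 837 to 1086 and 34.2 to 58.5 FPKM, Parm1 at 10.7 to 23.2 and 1.98 to 12.8 FPKM, and Hsd17b7 at 209 to 336 and 0.737 to 6.1 FPKM. Akr1c18 ranged from 0.162% in OC1 to 14.4% in OT4 (median 5.34%), the widest range of the 5. Akr1cl, a gene of the same enzyme family with a higher ovarian level, had a median share of 0.180%.

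**Figure D4:**
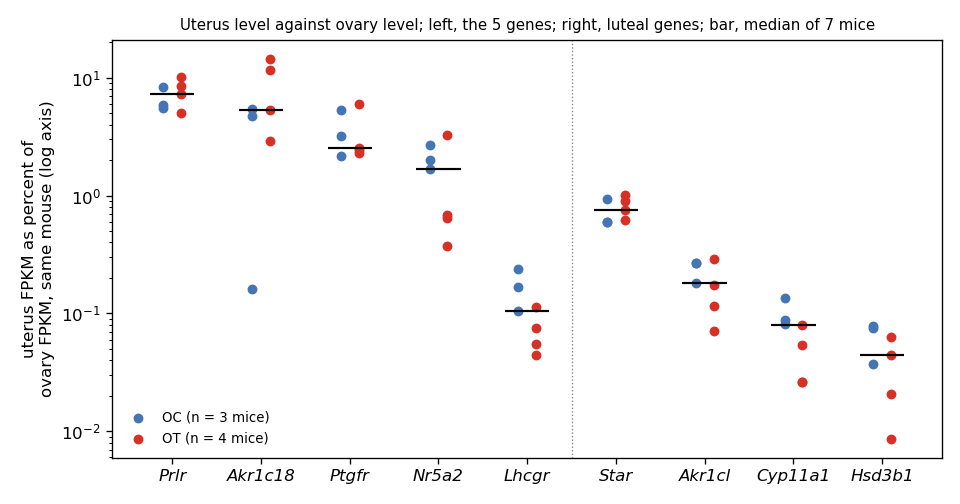
Uterine FPKM as a percent of ovarian FPKM in the same mouse, on a log axis, for the 5 genes (left of the dotted line) and for Star, Akr1cl, Cyp11a1 and Hsd3b1 (right), with OC mice in blue, OT mice in red and the median of 7 mice as a bar. Lhcgr has a median of 0.106%, below that of Star (0.758%), and Prlr, Akr1c18, Ptgfr and Nr5a2 have medians of 1.67% to 7.20%.

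In the uterus Lhcgr was barely measurable, and its groups did not overlap. It was at 0.128, 0.184 and 0.083 FPKM in the OC uteruses. In the OT1 to OT4 uteruses it was at 0.038, 0.049, 0.061 and 0.07 FPKM. Every OT uterus was below every OC uterus, and 11.9% of tested uterine genes also had groups that did not overlap. Lhcgr was below the minimum mean of 0.5 FPKM for the limma fit, and the exact permutation p was 0.0571, the smallest the design allows, or 0.571 adjusted over the 10 exact tests.

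Prlr, which acts in the decidua as well as in the ovary, was at 8.12, 8.19 and 12.02 FPKM in the OC uteruses and at 13.04, 7.86, 11.0 and 12.5 FPKM in the OT uteruses. Its groups overlapped, and the log2 fold change was 0.23 (SE 0.23, limma adjusted p = 0.718). Ptgfr, through which PGF2α contracts the myometrium, was at 5.54, 7.30 and 3.61 FPKM in OC and at 4.30, 8.51, 3.34 and 3.37 FPKM in OT uteruses. Its groups overlapped as well, with a log2 fold change of -0.22 (SE 0.37, limma adjusted p = 0.836).

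The 2 remaining genes varied widely in the uterus. Akr1c18 was at 0.234, 1.65 and 2.16 FPKM in OC and at 1.06, 1.52, 2.98 and 4.35 FPKM in OT uteruses, an 18.6-fold range. OC1, the mouse with the highest ovarian level, had the lowest uterine level. The OT to OC difference was 1.04 log2 units (SE 0.74, limma adjusted p = 0.649), and without OC1 it was 0.18. Nr5a2 was at 1.57, 2.26 and 1.59 FPKM in OC and at 0.254, 0.665, 0.659 and 2.13 FPKM in OT uteruses. OT1, OT2 and OT3 were below every OC uterus, and OT4 was within the OC range. Its log2 fold change was -1.19 (SE 0.59, limma adjusted p = 0.616). Without OT4 it was -1.67 (SE 0.45), past the cutoffs of a call.

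None of the 4 genes tested in the uterus was called, where 2.9% of 14151 tested genes were, 316 higher and 94 lower in OT. None of the 14151 had a limma adjusted p under 0.05, and 1160 had an unadjusted p under 0.05. Markers of other tissues moved with the groups in the same libraries. The 8 adipocyte markers summed to 63.5 to 249 FPKM in OC and 1213 to 11501 FPKM in OT uteruses, and 8 of 8 were called higher. The 9 stratified epithelium markers summed to 2.93 to 13.9 FPKM in OC and 45.2 to 802 FPKM in OT uteruses, and 7 of 9 were called higher. Markers of the uterus itself differed as well, with none called. The 4 uterus position markers summed to 340 to 358 FPKM in OC and 197 to 286 FPKM in OT uteruses. The 5 smooth muscle markers summed to 5146 to 6095 FPKM in OC and 6422 to 9979 FPKM in OT uteruses. The part of these differences in the uterine values was not tested.

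Whether the OT response differed between the organs was tested in a limma fit of all 14 libraries, in which 1.45% of 13653 genes were called. Of the 4 members tested none was. The difference, ovary minus uterus, was -2.004 log2 units for Akr1c18 (SE 0.96, limma adjusted p = 0.840) and 1.12 for Nr5a2 (SE 0.61, limma adjusted p = 0.840). It was 0.13 for Ptgfr (SE 0.41) and -0.21 for Prlr (SE 0.25). Without both libraries of OC1 the difference for Akr1c18 was -0.50, and it was past the cutoffs without OC2 (-2.72), OC3 (-2.80) or OT2 (-2.43). For Nr5a2 it was past them without OT4 (1.71).

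No gene of the steroid-making machinery was called between OC and OT ovaries. The 13 luteal steroidogenesis genes had a median log2 fold change of -0.01, as did all 14415 tested genes, and 10 of the 13 had a value below 0. Cyp11a1 was at 2791 ± 320.1 FPKM (SD, n = 3) in OC and 2777 ± 267 FPKM (SD, n = 4) in OT ovaries. Hsd3b1 was at 2244 ± 194 FPKM and 2239 ± 152 FPKM. The members named by rule for this list, Lipe, a hormone-sensitive lipase, and Cyp19a1, the aromatase, had log2 fold changes of 0.66 (SE 0.28) and -0.30 (SE 0.75). In the uterus 3 of 12 tested genes of this list were called, against 2.9% of all tested genes, Lipe (2.09) and Hsd17b7 (1.46) higher and Cyp11a1 lower (-1.18), all in libraries whose adipocyte sums differed as given above. The Cyp11a1 call was lost with a pseudocount of 1 or the replicate block, and without OC1, OC2, OC3, OT1 or OT4, and that of Hsd17b7 with a pseudocount of 1. A filter at 2 FPKM took Cyp11a1 out of the test. Uterine Cyp11a1 was at 2.31 to 3.31 FPKM in OC and 0.665 to 2.53 FPKM in OT.

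Downstream of the prolactin receptor, 1 of 10 listed genes was called in the ovary, against 0.451% of all tested genes. Socs3, a feedback inhibitor of JAK-STAT signalling, was at 7.82, 9.41 and 11.0 FPKM in OC and at 22.7, 20.3, 13.4 and 21.1 FPKM in OT ovaries. Every OT ovary was above every OC ovary, where 5.91% of all tested genes had groups that did not overlap. This was a log2 fold change of 1.02 (SE 0.19, limma adjusted p = 0.997). Its size was at the 2-fold cutoff, and it was no longer called without OC1, OT1, OT2 or OT4. The median over the list was 0.03. In the uterus none of the 10 was called.

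Downstream of Lhcgr, none of 16 listed genes (G protein, adenylyl cyclases, protein kinase A subunits, CREB and arrestins) was called in the ovary, with a median log2 fold change of -0.03. The largest were Adcy4 (-0.38, SE 0.29) and Adcy7 (0.33, SE 0.13). In the uterus 1 of 16, Prkar2b, a regulatory subunit of protein kinase A, was called higher (1.99), against 2.9% of all tested genes. Prkar2b was at 99.8 FPKM in the OT1 uterus and at 8.56 to 24.6 FPKM in the other OT uteruses, and the call was lost without OC1, OC3 or OT3. Around Ptgfr, none of 15 genes of PGF2α supply and signalling was called in either organ. Akr1b7, an aldose reductase with PGF synthase activity, had a log2 fold change of -0.50 in the ovary (SE 0.17, limma adjusted p = 0.997) and 0.97 in the uterus (SE 0.43, limma adjusted p = 0.599). The difference in response between the organs, -1.47, was called (SE 0.41, limma adjusted p = 0.840), but not with a pseudocount of 1. Uterine Akr1b7 was at 0.338 to 2.03 FPKM, and a filter at 2 FPKM took it out of the test. Over the lists, 3 more genes were called in this difference, Cyp11a1 (1.17, SE 0.46), Hsd17b7 (-1.63, SE 0.46) and Prkar2b (-2.18, SE 0.88), against 1.45% of all tested genes. Cyp11a1 was no longer called in it with a pseudocount of 1 or without OC2, OT1 or OT4, nor Prkar2b without OC1, OC3 or OT3. With a filter at 2 FPKM Cyp11a1 was not tested in the difference.

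Among 17 nuclear receptors and luteal transcription factors none was called in the ovary, where the median was -0.05, with Cebpa at 0.66 (SE 0.22) and Nr0b1 at 0.60 (SE 0.37). In the uterus Cebpa, which is also a factor of fat cells, was called higher (1.74), against 2.9% of all tested genes, but not without OC1. Of the 5 AKR1C relatives of Akr1c18 that were tested none was called in either organ, and the median in the ovary was 0.03. Akr1cl, at 545 to 675 FPKM the most abundant relative in the ovary, was the only gene sharing 50-base stretches of transcript with Akr1c18, and these made up 0.581% of the Akr1c18 stretches. For Prlr the share was 1.03%, mostly with the overlapping gene Gm21973, and for Lhcgr it was 0%.

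Of 27 genes tied to luteal regression, 26 were tested in the ovary and 4 were called, each higher in OT, against 0.451% of all tested genes in either direction. These were Tnf and Il1b, inflammatory cytokines, Ccl2, a chemokine that draws monocytes, and Cd36, a fatty acid and thrombospondin receptor. The list was chosen with earlier results of these data known, so the count is not independent evidence. The count also depended on the filter on low values, since Tnf and Il1b passed it through their OT levels, and with a filter at 2 FPKM 2 genes were called, Ccl2 and Cd36. With no filter 1 gene was called lower as well, Fasl, the Fas ligand, named here after its values were seen, at 0.208, 0.601 and 0.510 FPKM in OC and 0.116 to 0.199 FPKM in OT ovaries. The median over the 26 genes was 0.10, against -0.01 over all genes.

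Tnf was at 0.093, 0.566 and 0.178 FPKM in OC and at 0.983, 0.872, 0.753 and 0.575 FPKM in OT ovaries, a log2 fold change of 1.42 (SE 0.49). Il1b was at 0.485, 0.287 and 0.181 FPKM in OC and at 0.734, 0.736, 0.696 and 2.78 FPKM in OT ovaries, a log2 fold change of 1.49 (SE 0.54). Both were low genes. Ccl2 was at 1.93, 1.70 and 0.991 FPKM in OC and at 3.63, 3.01, 4.10 and 4.27 FPKM in OT ovaries, a log2 fold change of 1.27 (SE 0.25). Cd36 was at 19.4, 23.1 and 28.1 FPKM in OC and at 120.3, 68.8, 34.4 and 39.0 FPKM in OT ovaries, a log2 fold change of 1.31 (SE 0.39). For each of these 4 genes every OT ovary was above every OC ovary, where 5.91% of all tested genes had groups that did not overlap, the genes were picked as called, and each limma adjusted p was 0.997. Leukocyte and adipocyte marker sums were above those of every OC ovary in OT1, OT2 and OT4, but not in OT3 (34.9 and 190 FPKM). The 5 leukocyte markers summed to 26.8 to 35.1 FPKM in OC and 34.9 to 56.3 FPKM in OT ovaries. Of these 4 were tested and none was called, but all 4 had a log2 fold change above 0 (median 0.53, against -0.01 over all genes). The 8 adipocyte markers summed to 146 to 259 FPKM in OC and 190 to 1728 FPKM in OT ovaries, with 4 called higher. The part of leukocyte and adipocyte RNA in the result was not tested. Without OC3 the count fell to 1 gene, Cd36. In the uterus Cd36 was the 1 gene called of 25 tested (2.28, SE 0.54, limma adjusted p = 0.439), against 2.9% of all tested genes.

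**Figure D5:**
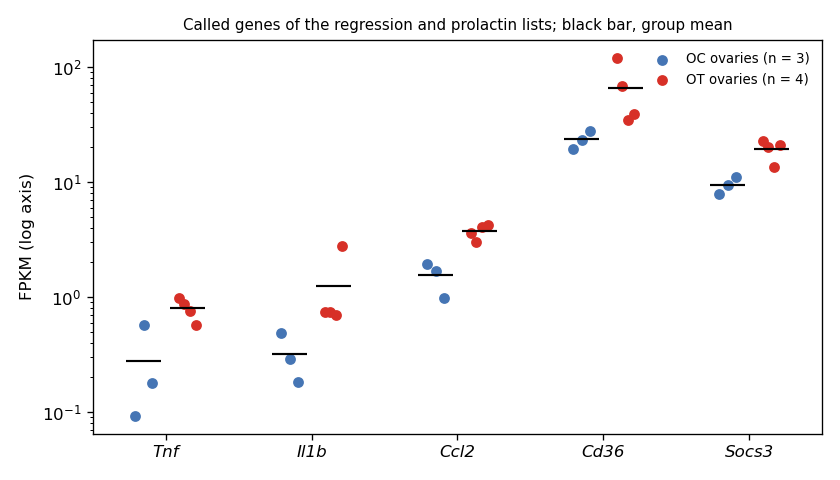
FPKM on a log axis of the 4 regression genes and Socs3, the genes called in the ovary from these lists, with 3 OC ovaries in blue, 4 OT ovaries in red and the group mean as a black bar. For each gene every OT ovary lies above every OC ovary, by the smallest margin for Tnf (0.566 against 0.575 FPKM).

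Between organs, 10 of 13 steroidogenesis genes were higher in the ovary, with a median of 4.24 log2 units. Of the nuclear receptors and transcription factors 9 of 17 were higher in the ovary and 2 lower. Of the signalling genes around the receptors, 1 was higher and 1 lower of 10 for prolactin, 2 higher and 1 lower of 16 for LH, and 3 higher and 2 lower of 15 for PGF2α, against 9.59% of all tested genes higher (1396) and 1457 of 14557 lower. Their medians were 0.35, -0.05 and 0.01 log2 units, beside 3.83 for Prlr, 8.70 for Lhcgr and 4.95 for Ptgfr. The contrast of receptors with these genes was not tested.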

How the data were processed

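Total RNA of the ovary and uterus of 3 OC and 4 OT mice was sequenced after rRNA depletion with a stranded kit. The authors deposited FPKM per gene, for which they removed adapters by Skewer 0.2.2, aligned to the mouse genome mm10 by STAR 2.5 and estimated levels by Cufflinks 2.2.1 under its strand option. These are not counts and the depth of each library is unknown. All 21853 gene identifiers matched GENCODE M21, which gave symbols and positions.

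Groups came from the sample labels. Genes averaging 0.5 FPKM or more over the libraries compared were fitted with limma 3.58.1 (lmFit, eBayes with a trend) in R 4.3.3 on log2(FPKM + 0.1), so fold changes of low genes are understated. OT was compared with OC in each organ, and the organs and the difference in response were compared in a fit of all 14 libraries. That fit had no term for the mouse, and the mouse as a block was an alternative. Calls used a 2-fold change with an unadjusted p of at most 0.05, or an adjusted p under 0.05 between organs. Benjamini-Hochberg adjustment ran over all tested genes. Single genes and pairs were tested by exact permutation in Python 3.11.15 with scipy 1.17.1. The fits were checked on simulated data.

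The text names the 5 genes, the genes of each list that were called or else the 2 with the largest change, and for each of the 5 the 3 genes with the highest r, of which 1 is not reported here. Star, Cyp11a1, Hsd3b1, Inha, Amh, Scarb1, Sfrp4, Akr1cl and Fasl, for which an ovarian level or a uterine share is given, were added to these. The genes and lists were chosen with earlier results of these data known. The sign-flip test of the level order and the list counts under other settings were added after the data were seen. The labels give no batch. OC and OT mice of the same number were not paired. The correlations of their deviations from the group means were 0.331, 0.045 and 0.08 for ovaries and 0.08, 0.001 and -0.027 for uteruses. Between unlike numbers they ran from -0.382 to 0.253 for ovaries and from -0.27 to 0.189 for uteruses, so 0.331 was the highest for ovaries. Ovary and uterus of the same number were taken as 1 mouse by the number alone, and their correlations were 0.09 to 0.265. Alternatives were another pseudocount, filter, scaling, variance model, block, joint fit and leaving out each mouse.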

Additional observations from a re-analysis of the deposited data

Results flagged for a closer look

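Prlr in the OT4 ovary, at 123 FPKM, lay far below the other OT ovaries (153, 156 and 153 FPKM). The gap to the nearest was 0.919 of the whole range of the group, above the critical value of 0.829 for 4 samples. Of 10 groups examined (the 5 genes in the OT ovaries and the OT uteruses) this was the 1 that passed, and chance flags about 1 in 20 groups. The luteal cell markers also summed lowest in this ovary, at 6503 FPKM, although Star, Parm1, Cyp11a1 and Hsd3b1 were each lowest in another ovary. The cause was not tested.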

How the results depend on the processing

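Of the alternatives tried, the 5 genes kept their higher ovarian level and their call in all 15 settings of the comparison of organs. In the ovary OT against OC gave 0 called genes in every setting with all mice, and 0 to 1 when 1 mouse was left out. There the log2 fold change ran from -1.34 to -0.32 for Akr1c18, from -0.029 to 0.14 for Lhcgr (below 0 without OT1 or OT2), from -0.0080 to 0.11 for Prlr (below 0 without OT2 or OT3) and from -0.17 to 0.041 for Nr5a2 (above 0 without OC3, OT1 or OT4). With the replicate block, which leaves out OT4, Nr5a2 in the ovary was 0.041, the value without OT4 alone. In the uterus 1 gene, Nr5a2, was called with the replicate block (-1.67, SE 0.43, again the value without OT4 alone) and in one fit of all 14 libraries (-1.19, SE 0.43). Leaving out 1 mouse gave 0 to 1 called genes there, with Nr5a2 from -1.67 to -0.79 and Ptgfr from -0.52 to 0.011 (above 0 without OC2). The difference in response had 1 called gene, Akr1c18, after quantile normalization (-1.93, SE 0.89). Leaving out 1 mouse gave 0 to 1 there, with Akr1c18 from -2.80 to -0.50, Nr5a2 from 0.80 to 1.71 and Ptgfr from -0.21 to 0.45. The block by mouse changed no call of the 5 genes between organs or in the difference in response, where calls over all genes went from 68 higher and 130 lower to 76 and 192, with Lipe, Cebpa and Fos of the lists added. The cause of these changes was not tested.

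Pairs of genes with an adjusted p under 0.05 numbered 1, and 0 with group means removed, a setting in which 1 pair alone could not pass. Leaving out 1 ovary gave 0 to 2. Correlations that changed sign were Akr1c18 with Lhcgr (0.024 with group means removed, -0.42 to 0.16 with 1 ovary left out), Akr1c18 with Ptgfr (-0.35 to 0.70), Akr1c18 with Prlr (-0.010 as TPM, -0.27 to 0.23), Akr1c18 with Nr5a2 (-0.16 to 0.54), Lhcgr with Ptgfr (-0.12 to 0.62) and Ptgfr with Nr5a2 (-0.60 to 0.26). A block could not be fitted to a correlation. The 4 regression genes called higher in OT ovaries became 1 with a pseudocount of 1, 2 with a filter at 2 FPKM, and 1 to 4 with 1 mouse left out. With no filter they were 4 with Fasl called lower, and with the replicate block 4, with Fos in place of Il1b. Socs3, the 1 prolactin list gene, became 0 with a pseudocount of 1 and with the replicate block, and 0 to 1 with 1 mouse left out.

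Over all genes, calls in the ovary (53 higher, 12 lower) became 16 and 2 with a pseudocount of 1, 99 and 60 with no filter, 25 and 0 with a filter at 2 FPKM, and 70 and 35 with the block (54 and 19 without OT4 alone). In the uterus 316 and 94 became 202 and 57 with a pseudocount of 1 and 427 and 239 with the block (414 and 188 without OT4 alone). Scaling to TPM moved the median log2 fold change of all genes to -0.13 in the uterus, 0.14 in the difference and 0.24 between organs, where 1396 higher and 1457 lower became 1865 and 1058. Akr1c18 and Nr5a2 had no uterine value with a filter at 2 FPKM. The depth is unknown, and with 3 against 4 mice the smallest exact permutation p is 0.0571.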
